A study of Gossypium hirsutum with 6 samples.

Results

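On the scale defined below, a small set of cotton leaf transcripts stayed within 2-fold of control at 4 h of heat in both genotypes. At 8 h these transcripts stood at least 4-fold above control in both. The set holds 54 of the 421554 transcripts measured. A late transcript was chosen by ratios of (RPKM + 1), where RPKM is a read count scaled to transcript length and library size. The ratio of 4 h to control had to lie strictly between 1/2 and 2 in both genotypes, the ratio of 8 h to control had to be 4 or more in both, and the 8 h value had to reach 10 RPKM in both. These values chose the transcripts, so ratios to control are given below as a description.

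Leaves came from seedlings of upland cotton (Gossypium hirsutum) at an age of about 20 days, grown in 28 °C days and 22 °C nights with 14 h of light and Hoagland's solution named as the culture condition. Nan Dan Ba Di Da Hua, labelled heat tolerant, and Earlistaple 7, labelled heat sensitive, each gave a control library at 28 °C and libraries after 4 h and 8 h at 45 °C. Each of the 6 groups held 1 library, so no value below has a spread between plants behind it and no p-value can be given. Heat began about 6 h after the lights came on, which puts the 8 h leaves near the end of the light period. The labels do not give the hour of the control harvest, so the length of heat cannot be told apart from the time of day. In bulk leaf RNA, a change in the mixture of cells and a change of RNA per cell cannot be told apart either.

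Heat sets off waves of gene expression in plant leaves. Heat shock factors, which are transcription factors freed by misfolded protein, first switch on genes for chaperones, proteins that keep other proteins folded. Later waves are known to include genes for cell protection, signalling and senescence, and a response that starts late can depend on proteins made in the earlier one. Upland cotton carries the genomes of a pair of ancestral species, so near-identical gene copies are common and short reads may be shared between them. The transcripts here are sequences assembled de novo, named by the assembly component they belong to, with related sequences in 1 component. None of them is paired with a gene name in the sources used here, so no function is given for any late transcript and the leaf label was not checked against leaf markers.

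Read depth, estimated from the step size of low values, lay between 0.795 and 1.13 times that of the tolerant control in the other libraries. The absolute number of reads is unknown. Transcripts at 1 RPKM or more numbered 107290 to 148293 per library, with the highest numbers in the tolerant 4 h and the sensitive 8 h libraries. These libraries also had the highest scaling factors, at 1.32 and 1.25 by median-of-ratios. Median-of-ratios and upper-quartile scaling moved the log2 ratio of 4 h to control in heat-tolerant leaves by -0.63 and -0.52, and the log2 ratio of tolerant to sensitive at 8 h by 0.65 and 0.32. Counts under both scalings are given beside the main counts of direction.

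The late transcripts came from 31 components, of which 21 held 1 late transcript each. Together they took up 0.0619%, 0.0749% and 0.632% of all RPKM in heat-tolerant control, 4 h and 8 h libraries. In heat-sensitive leaves the shares were 0.0186%, 0.0322% and 0.162%. In both genotypes the joint share at 8 h was several times that at 4 h, and it was larger in heat-tolerant than in heat-sensitive leaves in every condition. A few high transcripts weigh heavily in these shares, such as comp88679_c0_seq1 at 1003.43 RPKM in the tolerant 8 h library. Among the 38 below 1 RPKM in both controls the order was reversed in the controls alone (0.000101% in heat-tolerant, 0.000149% in heat-sensitive leaves).

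Late transcripts were rare among the transcripts that responded by 8 h. Of 164561 transcripts at 1 RPKM or more in the tolerant 8 h or control library, 5.55% stood 4-fold or more above control at 8 h, and of 172047 in heat-sensitive leaves 3.14% did. The rule applied to 1 genotype alone was met by 1062 transcripts in heat-tolerant leaves (0.537% of those at 1 RPKM or more in any heat-tolerant library) and by 230 in heat-sensitive leaves (0.127%). The 54 that met it in both are 0.0238% of 226960 transcripts that reached 1 RPKM in some library. They make up 5.08% of the tolerant list and 23.5% of the sensitive list.

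At 8 h, 986 transcripts were at least 4-fold above control and at 10 RPKM or more in both genotypes. In that group 845 were already at least 2-fold higher at 4 h in heat-tolerant leaves, 842 in heat-sensitive leaves and 757 in both. The median log2 ratio of 4 h to control was 2.29 in heat-tolerant and 2.31 in heat-sensitive leaves. The late transcripts are the 5.48% of this group that stayed within 2-fold at 4 h in both, on the (RPKM + 1) scale. By plain RPKM some of them changed more by 4 h. For example, comp127640_c0_seq2 went from 0.02 to 0.56 RPKM in heat-tolerant leaves, and comp89438_c0_seq3 from 2.87 to 6.71 RPKM in heat-sensitive leaves.

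**Figure D1:**
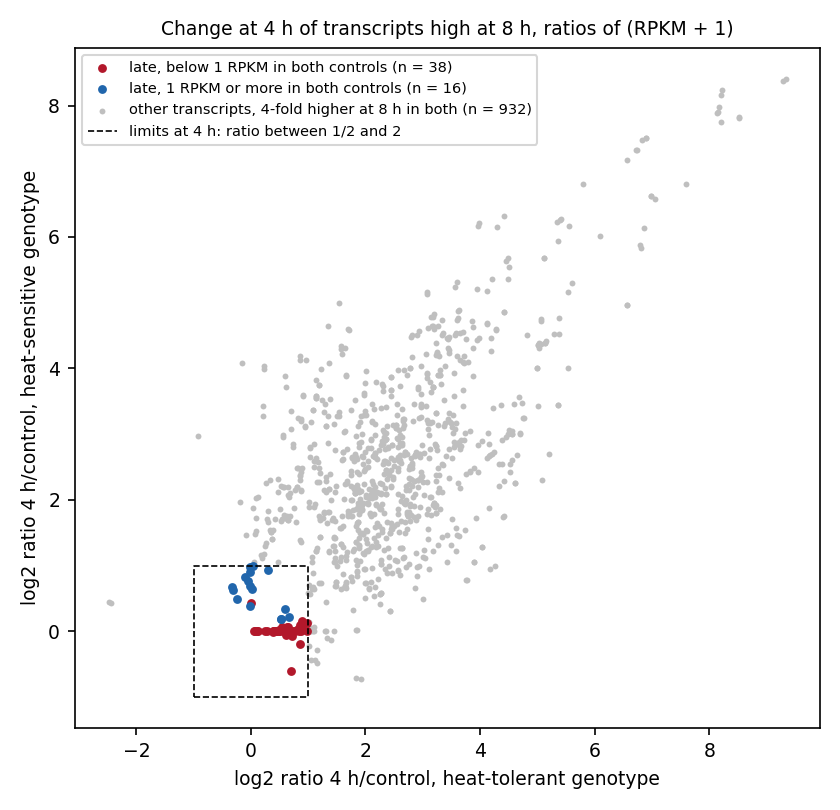
Log2 ratio of 4 h to control, (RPKM + 1), in heat-tolerant (x axis) against heat-sensitive leaves (y axis) for the 986 transcripts at least 4-fold higher and at 10 RPKM or more at 8 h in both. Most grey points lie well above 0 on both axes, and the 54 late transcripts (red and blue) fill the corner inside the dashed limits: red points, below 1 RPKM in both controls, spread along the tolerant axis near 0 on the sensitive axis, while blue points sit above 0 on the sensitive axis.

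Levels in the controls split the late transcripts into a pair of groups with no member between them. In one group of 38 transcripts from 19 components, the highest value in either control was 0.6 RPKM. The other 16 transcripts, from 12 components, all measured 1.46 RPKM or more in both controls. The groups are called off and expressed in the controls below, where off means below 1 RPKM in both controls and does not show that a transcript was absent, and no component had late transcripts in both. The limit of 1 RPKM used to separate them was set after the values were seen.

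**Figure D2:**
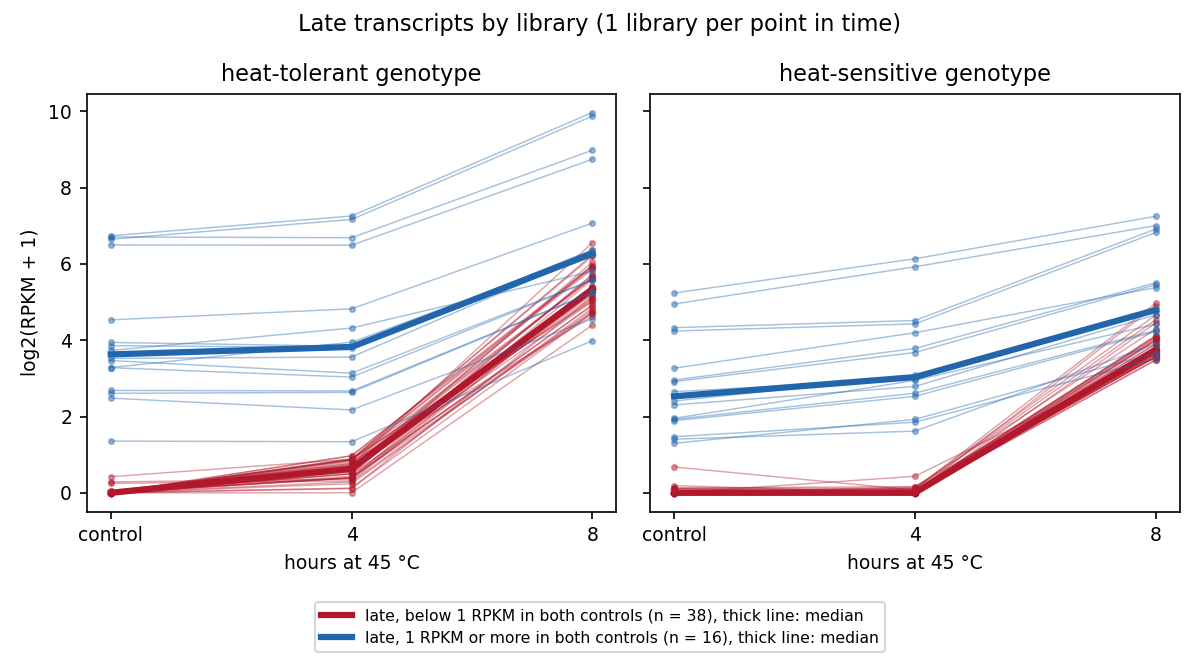
Log2(RPKM + 1) of the 54 late transcripts in the control, 4 h and 8 h libraries of the tolerant (left) and sensitive genotype (right), 1 library per point in time. Thin lines are transcripts and thick lines medians of the 38 transcripts off in the controls (red) and the 16 expressed there (blue). The median lines change far less up to 4 h than from 4 h to 8 h, and the red lines end within a narrow band in each genotype.

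The 38 transcripts that were off in the controls reached moderate levels by 8 h. Their medians were 0 RPKM in the tolerant control, 0.55 RPKM at 4 h and 39.6 RPKM at 8 h. In heat-sensitive leaves the medians were 0, 0 and 12.5 RPKM. At 8 h the values ran from 20.08 to 93.11 RPKM in heat-tolerant and from 10.15 to 30.41 RPKM in heat-sensitive leaves. For 24 of the 38 both controls listed 0, and for 16 of these the sensitive 4 h library listed 0 as well.

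At 4 h these 38 transcripts looked different in the genotypes. In the tolerant 4 h library 37 were above their control value, although all stayed below 1 RPKM, and 21 reached 0.5 RPKM. In the sensitive 4 h library 11 were above control, 6 below and 21 equal to it, and the highest value was 0.35 RPKM. Under either other scaling 35 were above and 2 below control in heat-tolerant leaves, and 11 above and 8 below in heat-sensitive leaves. Scaling cannot change a comparison with a control listed at 0, as 32 of the 38 were in heat-tolerant and 27 in heat-sensitive leaves. It therefore says little about these counts. Among all 232 transcripts of that kind (below 1 RPKM in both controls, 4-fold higher and at 10 RPKM or more at 8 h in both), 99.6% were above control at 4 h in heat-tolerant and 84.1% in heat-sensitive leaves. The rule itself caps the 4 h values in both genotypes, so these counts describe the transcripts chosen. Why fewer were above control in heat-sensitive leaves was not tested.

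Set against their own 8 h value, the 4 h values of this group were small. The median share was 1.20% in heat-tolerant leaves, with a highest value of 3.20%, and 0 in heat-sensitive leaves, with a highest value of 3.26%. Over the 232 transcripts of that kind, which include the 38, the median shares were 16.7% and 22.2%. The rule kept the 4 h values of the 38 low and their 8 h values at 10 RPKM or more, so this contrast follows from the choice. A rise only by 8 h, as the rule defines it, therefore speaks of the size of the change: in heat-tolerant leaves nearly all of these transcripts were listed above control by 4 h. With a pseudocount of 0.1 RPKM in place of 1 RPKM, which gives low values more weight, 34 of the 38 no longer met the rule, and 4 transcripts in all below 1 RPKM in both controls did.

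Ordered by the mean of the 8 h values of both genotypes, the group was led by comp127710_c1_seq1 and comp125249_c1_seq4. comp127710_c1_seq1 measured 0, 0.67 and 93.11 RPKM in heat-tolerant control, 4 h and 8 h libraries, and 0, 0 and 29.06 RPKM in heat-sensitive ones. comp125249_c1_seq4 measured 0, 0.85 and 72.86 RPKM in heat-tolerant and 0, 0.07 and 30.41 RPKM in heat-sensitive libraries. Both were thus listed at 0 in the controls and stood higher at 8 h than at 4 h by 139-fold and 85.7-fold in heat-tolerant leaves. These 2 also had the highest smaller response of the genotypes on the log2(RPKM + 1) scale, with ratios of 8 h to control of 6.56 and 6.21 in heat-tolerant and 4.91 and 4.97 in heat-sensitive leaves.

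With at most 1 transcript named per component, 4 more transcripts of the off group followed in the order of that smaller response. comp118396_c0_seq3 measured 0.34, 0.84 and 74.67 RPKM in heat-tolerant and 0, 0 and 20.96 RPKM in heat-sensitive libraries. comp72496_c0_seq1 measured 0, 0.85 and 31.84 RPKM in heat-tolerant and 0, 0.11 and 18.6 RPKM in heat-sensitive libraries. The first was 1 of 6 in the group with a tolerant control above 0, while the second was among the transcripts in which the genotypes were closest at 8 h. comp123996_c0_seq1 gave 0, 0.47 and 40.62 RPKM in heat-tolerant and 0.03, 0.04 and 16.37 RPKM in heat-sensitive leaves. For comp112771_c0_seq10 the values were 0, 0.31 and 25.17 RPKM and 0, 0 and 15.26 RPKM in the same order. In all 4 the tolerant 4 h value lay between 0.31 and 0.85 RPKM, against 0 to 0.11 RPKM in the sensitive 4 h library.

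The 16 late transcripts expressed in the controls spanned a wide range of levels. Medians were 11.4, 13.2 and 76.3 RPKM in heat-tolerant control, 4 h and 8 h libraries, and 4.80, 7.20 and 26.7 RPKM in heat-sensitive ones. Plain ratios of RPKM at 8 h to control ran from 4.48 to 9.53 in heat-tolerant leaves, with a median of 6.03, and from 4.12 to 8.45 in heat-sensitive leaves, with a median of 6.27. As deposited, the folds of the genotypes covered overlapping ranges. Under median-of-ratios scaling 16 of the 16 were still 4-fold higher in heat-tolerant and 9 in heat-sensitive leaves, and under upper-quartile scaling 13 and 8. The 8 h ratio was the larger one in heat-tolerant leaves for 10 of the 16, and for 16 and 14 under median-of-ratios and upper-quartile scaling. These scalings move that log2 ratio by 0.10 and -0.20 in heat-tolerant and by -0.37 and -0.41 in heat-sensitive leaves. Both thus tilt the count toward heat-tolerant leaves. How often the tolerant ratio was larger over all transcripts was not counted. Over all transcripts tested, the median log2 ratio of 8 h to control was 0.20 in heat-tolerant and 0.27 in heat-sensitive leaves.

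By the mean of the 8 h values of both genotypes, comp88679_c0_seq1 was the highest late transcript. It measured 105.8, 152.21 and 1003.43 RPKM in heat-tolerant control, 4 h and 8 h libraries, and 19.12, 21.91 and 119.75 RPKM in heat-sensitive ones. At 8 h it was the 35th highest transcript of the tolerant library and the 384th of the sensitive library. It stood 9.48-fold above control at 8 h in heat-tolerant leaves and 6.26-fold in heat-sensitive leaves. It was higher in heat-tolerant than in heat-sensitive leaves in every condition, by 5.53-fold in the controls, 6.95-fold at 4 h and 8.38-fold at 8 h. comp89236_c0_seq1, of another component, measured 99.36, 142.71 and 940.44 RPKM in heat-tolerant and 17.93, 20.55 and 112.47 RPKM in heat-sensitive libraries. The ratio of the first to the second stayed between 1.06 and 1.07 in all 6 libraries, and how reads were assigned between them was not examined.

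Next in that order came comp59640_c0_seq1 and comp59810_c0_seq1, which in the sensitive 8 h library stood above the pair just given. comp59640_c0_seq1 measured 103.59, 102.2 and 504.98 RPKM in heat-tolerant and 36.74, 69.42 and 151.25 RPKM in heat-sensitive libraries. comp59810_c0_seq1 gave 89.53, 89.02 and 428.25 RPKM in heat-tolerant and 29.93, 59.85 and 127.55 RPKM in heat-sensitive libraries. In heat-tolerant leaves both stayed at control level at 4 h, at 0.987 and 0.994 times control. In heat-sensitive leaves they stood at 1.89 and 2.00 times control by plain RPKM, just inside the limit of the rule on the (RPKM + 1) scale. Their ratio to each other varied between 1.15 and 1.23 over the libraries.

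A pair of transcripts at lower levels had similar 4 h ratios in heat-sensitive leaves. comp126777_c0_seq6 measured 22.18, 27.34 and 133.57 RPKM in heat-tolerant and 8.63, 17.34 and 40.69 RPKM in heat-sensitive libraries. comp128454_c1_seq3 measured 14.38, 13.35 and 81.32 RPKM in heat-tolerant and 6.77, 12.79 and 44.45 RPKM in heat-sensitive libraries. The 4 h value was 1.23 and 0.93 times control in heat-tolerant leaves, against 2.01 and 1.89 times control in heat-sensitive leaves. At 8 h these 2 stood 6.02-fold and 5.66-fold above control in heat-tolerant leaves, and 4.71-fold and 6.57-fold in heat-sensitive leaves.

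The whole expressed group stood above control at 4 h in heat-sensitive leaves and on either side of it in heat-tolerant leaves. At 4 h all 16 were above control in heat-sensitive leaves, by 1.15-fold to 2.34-fold with a median of 1.78, while 40.8% of all transcripts at 1 RPKM or more in both controls were. In heat-tolerant leaves 7 of the 16 were above control and 9 below, with a median of 0.992 and a range of 0.765 to 1.65, against 50.4% of all transcripts above control. Among all 585 transcripts of the same kind (1 RPKM or more in both controls, 4-fold higher and at 10 RPKM or more at 8 h in both), 97.9% were above control at 4 h in heat-tolerant and 99% in heat-sensitive leaves. Being above control at 4 h in heat-sensitive leaves was thus usual for that kind. The 4 h ratio was the larger one in heat-sensitive leaves for 12 of the 16, and how often this held over all transcripts was not counted. Over the 585 the median log2 ratio of 4 h to control was 2.26 in heat-tolerant and 2.28 in heat-sensitive leaves. Under median-of-ratios and upper-quartile scaling all 16 stayed above control in heat-sensitive leaves, and 15 and 12 were below control in heat-tolerant leaves. These counts follow from the shifts of the log2 ratio, -0.63 and -0.52 in heat-tolerant leaves and -0.08 with each scaling in heat-sensitive leaves. The ratios of 4 h to control entered the rule, so the counts describe the transcripts chosen. The 16 came from 12 components and some were proportional to each other, so they are not separate measurements. A difference between the genotypes cannot be tested with 1 library each.

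All 54 late transcripts were higher in heat-tolerant than in heat-sensitive leaves at 8 h. The plain ratio ran from 1.43 to 8.38 with a median of 2.60, and 42 of the 54 were at least 2-fold apart on the (RPKM + 1) scale (54 and 52 under median-of-ratios and upper-quartile scaling). Among 6949 transcripts at 10 RPKM or more in both 8 h libraries, 57.6% were higher in heat-tolerant leaves and 16.1% at least 2-fold higher. Among the 986 that were also 4-fold above control in both, 88.7% were higher in heat-tolerant leaves and 51.7% at least 2-fold higher. A tolerant excess was thus common among transcripts that were both high and 4-fold above control at 8 h in both genotypes. Both other scalings raise the log2 ratio of tolerant to sensitive at 8 h, by 0.65 and 0.32, so the count of 54 could not fall under them. The median log2 ratio of 1.32 became 1.95 and 1.63.

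**Figure D3:**
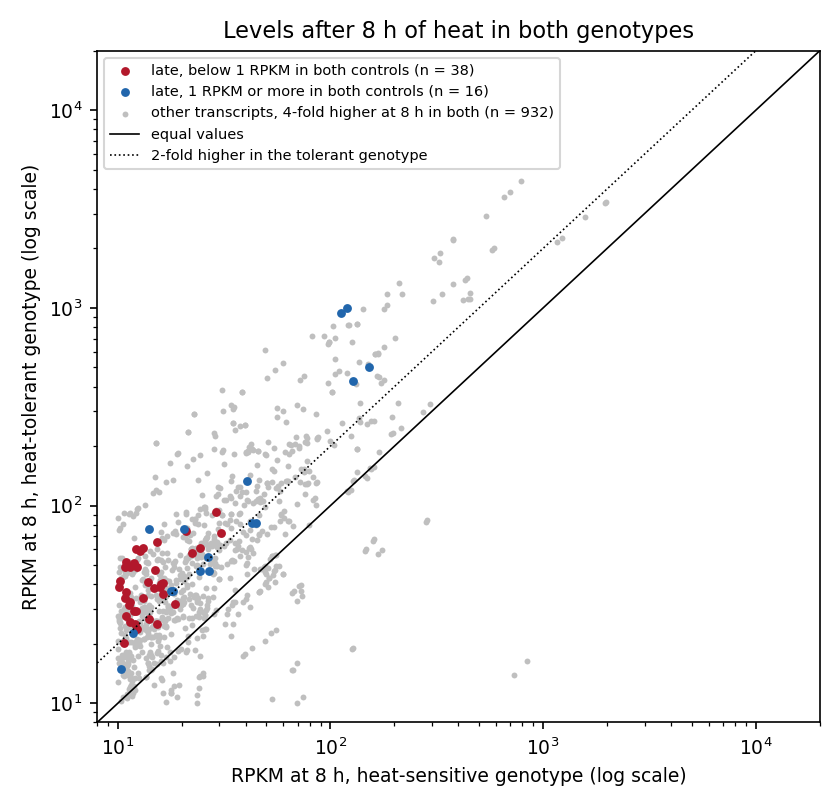
RPKM at 8 h in heat-tolerant (y axis) against heat-sensitive leaves (x axis), both on log scales, for the same 986 transcripts, with lines of equal values and of a 2-fold excess in heat-tolerant leaves. All 54 late transcripts lie above the line of equal values, within the upper part of the grey cloud of the other 932.

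At 8 h the genotypes were farthest apart in comp88679_c0_seq1 and comp89236_c0_seq1, given above. After them came comp85835_c0_seq1, with 8.74, 14.46 and 76.15 RPKM in heat-tolerant and 1.65, 2.07 and 13.95 RPKM in heat-sensitive libraries, and comp123996_c0_seq2, with 0, 0.83 and 60.09 RPKM in heat-tolerant and 0, 0 and 12.18 RPKM in heat-sensitive ones. comp85835_c0_seq1 already differed by 5.30-fold in the controls, whereas comp123996_c0_seq2 was listed at 0 in both. The closest values at 8 h were those of comp95786_c0_seq1, with 1.56, 1.53 and 14.87 RPKM in heat-tolerant and 1.77, 2.61 and 10.39 RPKM in heat-sensitive libraries. comp128454_c1_seq4, also among the closest, measured 10.07, 7.8 and 46.82 RPKM in heat-tolerant and 4.3, 7.44 and 26.92 RPKM in heat-sensitive libraries.

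Among the 16 expressed in the controls, the tolerant excess was present before heat. In the controls 15 of the 16 were higher in heat-tolerant leaves, by a median of 2.46-fold over the 16, whereas 37% of all transcripts at 1 RPKM or more in both controls were higher in heat-tolerant leaves. Among the 585 of the same kind the share was 73.8%. The count of 15 was the same under both other scalings, which raise this log2 ratio by 0.18 and 0.11 and so could not lower it. At 4 h 15 of 16 were higher in heat-tolerant leaves as deposited, with a median of 1.36-fold, 60.4% of all transcripts and 73% of the 585 higher, but 8 of 16 under each of the other scalings. At 8 h the median was 2.08-fold. As deposited, the median ratio was lowest at 4 h, where all 16 sensitive values were above their control and 9 tolerant values below. In the off group the median ratio at 8 h was 2.69, with a range of 1.65 to 4.93.

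Assembly components, which the rule did not use, showed whether neighbouring transcripts behaved alike. The 31 components held 175 other transcripts, and 173 of them, in 21 components, reached 1 RPKM in some library. Of the 135 in components of the off group, 113 were at least 4-fold higher at 8 h than in control in heat-tolerant leaves and 68 in both genotypes (50.4%), while 7 were at least 2-fold lower in heat-tolerant leaves. All conditions of the rule but the 8 h minimum were met by 60 of the 135, against 0 of 38 in components of the expressed group and 189 of 226733 transcripts elsewhere. In components of the expressed group 18 of 38 were 4-fold higher in heat-tolerant leaves and 4 in both (10.5%). The 72 in both over all these components became 124 with a pseudocount of 0.1 RPKM and 8 with 5 RPKM. Over 226733 transcripts of all other components 3.95% were 4-fold higher in heat-tolerant leaves and 0.828% in both. Of those 226733, 34175 were at least 2-fold lower in heat-tolerant leaves. Reads may be assigned to several transcripts of 1 component, so these are not separate measurements.

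**Figure D4:**
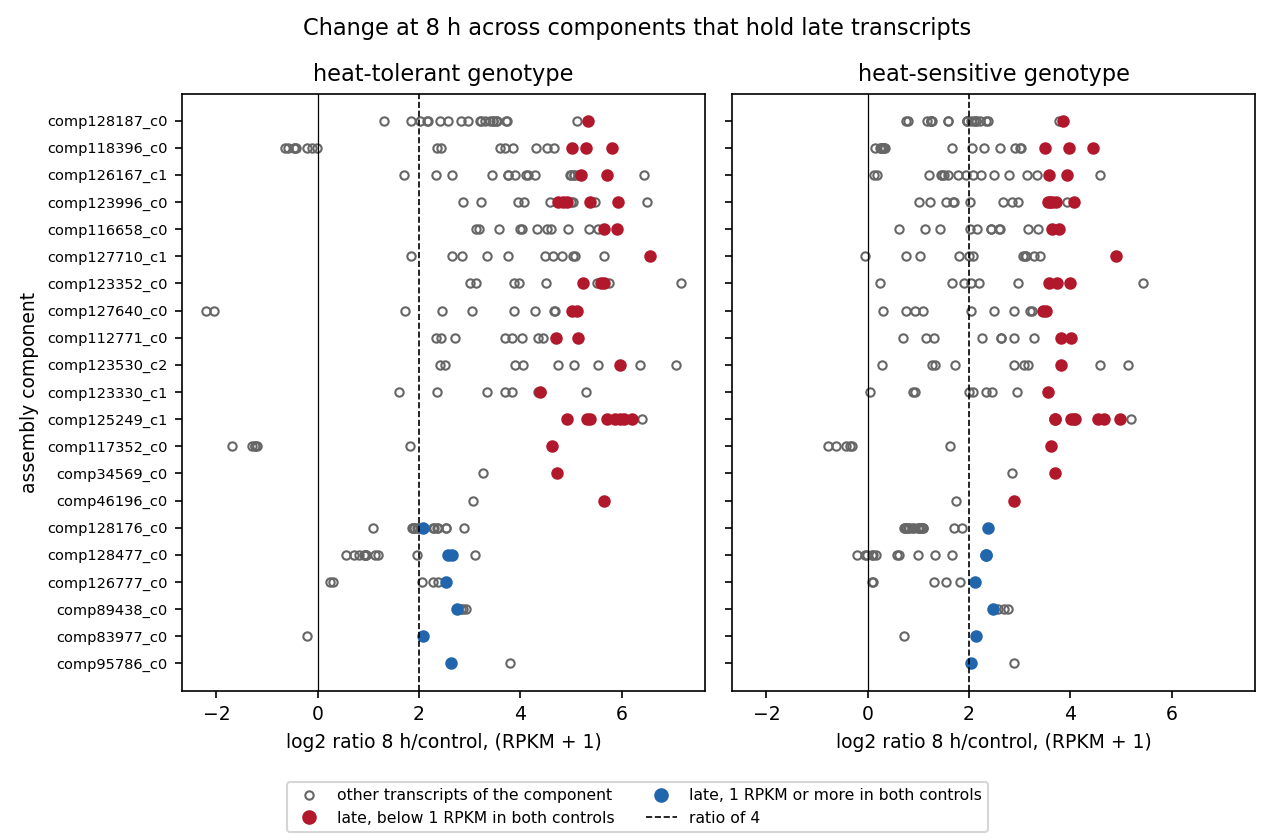
Log2 ratio of 8 h to control, (RPKM + 1), for every transcript at 1 RPKM or more in the 21 components that hold late transcripts together with others, in the tolerant (left) and sensitive genotype (right). Filled points are late transcripts and open points the other transcripts of the component. In components of the off group most open points lie to the right of 0 in both genotypes, and in comp117352_c0, comp118396_c0 and comp127640_c0 some lie to the left of 0 in heat-tolerant leaves.

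In 16 of the 19 components of the off group, every one of their 138 transcripts was below 1 RPKM in both controls, so the whole component was off by that definition. comp125249_c1 had the most late transcripts, 8 of its 9. Summed over its transcripts it measured 0, 5.94 and 499.81 RPKM in heat-tolerant and 0, 0.46 and 183.6 RPKM in heat-sensitive libraries. Its ninth transcript, comp125249_c1_seq8, missed the rule at 4 h alone, with 0, 1.01 and 83.1 RPKM in heat-tolerant and 0, 0.1 and 35.82 RPKM in heat-sensitive libraries. In comp123996_c0 5 of 15 transcripts were late, and the sums were 0, 10.71 and 476.09 RPKM in heat-tolerant and 0.59, 0.14 and 109.55 RPKM in heat-sensitive libraries. Both components thus summed to several RPKM at 4 h in heat-tolerant leaves, although each late transcript stayed below 1 RPKM. The sum of comp123996_c0 includes transcripts outside the set, such as comp123996_c0_seq8 at 2.85 RPKM. Reads shared within a component may enter such a sum more than once.

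comp128454_c1 led the expressed group, with all 4 of its transcripts late. Its sums were 46.7, 41.34 and 256.55 RPKM in heat-tolerant and 21.56, 37.95 and 138.7 RPKM in heat-sensitive libraries. The component as a whole was slightly below control at 4 h in heat-tolerant leaves and above it in heat-sensitive leaves. One of its transcripts, comp128454_c1_seq1, was also proportional to comp128477_c0_seq12 of another component, at 2.20 to 2.49 times its value in all 6 libraries. When summed values of whole components were put through the rule, 27 components met it, 12 of them among the 31.

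Values close to the limits show how sharply the set is drawn. comp89438_c0_seq3 was the member nearest the 4 h limit, with 2.87 RPKM in the sensitive control and 6.71 RPKM at 4 h, a log2 ratio of (RPKM + 1) of 0.99. comp117151_c0_seq5 was the nearest outside, with a log2 ratio of 1.00 from 0.84 RPKM in the tolerant control and 2.68 RPKM at 4 h. For the 8 h ratio, comp59640_c0_seq1 was just inside at a log2 ratio of 2.01 in heat-sensitive leaves and comp113999_c0_seq2 just outside at 1.97. For the 8 h minimum, comp73278_c0_seq1 was just inside at 10.15 RPKM in the sensitive 8 h library, and comp114954_c0_seq4 just outside at 9.6 RPKM. The 4 h limits alone kept out 932 transcripts, the 8 h ratio alone 2781 and the 8 h minimum alone 249.

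Transcripts late in 1 genotype alone missed the rule in the other in several ways. Of the 1008 late in heat-tolerant leaves alone, 785 stayed within 2-fold at 4 h in heat-sensitive leaves but missed a condition at 8 h, and 85 missed the 4 h condition alone. At 8 h 747 of the 1008 were at least 2-fold above control in heat-sensitive leaves and 0 at least 2-fold below, with a median log2 ratio of 1.48, whereas 18.8% of all transcripts tested were 2-fold above and 8.25% below. Of the 176 late in heat-sensitive leaves alone, 39 missed only conditions at 8 h in heat-tolerant leaves and 90 only the 4 h condition. Of these 176, 94 stood 2-fold or more above control at 4 h in heat-tolerant leaves and 43 at least 2-fold below, with 20.7% and 9.15% of all transcripts tested. At 8 h 101 of the 176 stood 2-fold or more above control in heat-tolerant leaves and 32 at least 2-fold below, with 27.5% and 20.8% of all. Whether these patterns differ between the genotypes was not tested, and the lists changed in length with the scaling. Under median-of-ratios scaling the tolerant list held 2550 transcripts, and the sensitive list held 108. With upper-quartile factors the sensitive list held 109.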

How the data were processed

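The 6 RPKM tables, 1 per library, were used as the authors deposited them, with RPKM values to 2 decimals for the same 421554 transcripts in 148415 components, per the file headers. Which programs assembled, aligned and counted the reads, and whether strand was used, is not given in the sources used here. Of the identifiers 0 matched any of 99454 annotated genes (Gossypium_hirsutum_v2.1). Libraries were grouped by the genotype and treatment in their titles, 1 per group.

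Ratios were taken of (RPKM + 1), and backgrounds over transcripts at 1 RPKM or more in a compared library. This scale understates changes of low transcripts. RPKM compares libraries as shares of a total, so median-of-ratios and upper-quartile (75th percentile) scaling were tried, with other pseudocounts and limits. No test was made and no interval is given, because groups have 1 library and read counts are unknown. Transcripts named with 6 values were the 8 highest by mean 8 h value, the 6 with the highest smaller response, the 4 with the highest and the 4 with the lowest genotype ratio at 8 h, the leaders of the 3 components with most members, and those nearest the limits, with at most 1 per component in a class. A further few were named after their values were seen. The members and these choices were made with earlier results of these data known. The rule and the depth estimate were tested on simulated data with random counting noise and assumed transcript lengths and depths. Changes were planted only in transcripts clearly expressed in the controls. That test thus does not cover the off group, variation between plants or reads shared between transcripts. Python 3.11.15, numpy 2.4.6 and pandas 2.3.3 were used.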

Additional observations from a re-analysis of the deposited data

Results flagged for a closer look

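At 4 h the median over the late transcripts expressed in the controls lay on opposite sides of control in the genotypes, as did the values of 5 named transcripts. The difference was not tested. Over the 16, the median log2 ratio of 4 h to control was -0.01 in heat-tolerant and 0.66 in heat-sensitive leaves, a difference of -0.67. Over the 585 transcripts of the same kind, which include the 16, the medians were 2.26 and 2.28. In heat-tolerant leaves 9 of the 16 were below control, and all 9 were above it in heat-sensitive leaves. These are not separate measurements, since the 9 include all 4 transcripts of comp128454_c1 and comp128477_c0_seq12, proportional to 1 of the 4. They also include comp59640_c0_seq1 and comp59810_c0_seq1, which were nearly proportional to each other. The differences of the log2 ratios, tolerant less sensitive, were -0.92 for comp59640_c0_seq1, -0.98 for comp59810_c0_seq1, -0.93 for comp128454_c1_seq3, -0.399 for comp95786_c0_seq1 and -1.002 for comp128454_c1_seq4. The tolerant side of these was small, from -0.33 to -0.01. Median-of-ratios and upper-quartile scaling move the log2 ratio of 4 h to control by -0.63 and -0.52 in heat-tolerant leaves. In heat-sensitive leaves each moves it by -0.08, where the lowest ratio of the 16 was 0.19. The signs of the medians could thus not change. They became -0.54 and -0.44 in heat-tolerant and 0.59 and 0.60 in heat-sensitive leaves.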

How the results depend on the processing

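The number of late transcripts moved with every limit of the rule, and each value comes from single libraries. It was 22 with a pseudocount of 0.1 RPKM (19 of them among the 54), 153 with an 8 h minimum of 5 RPKM, 16 with one of 20 RPKM and 303 with none. It was 22 with a 4 h window of 2/3 to 1.5, 87 and 37 with an 8 h ratio of 3 or 8 and more, and 27 for summed components. A pseudocount of 5 RPKM also gave 54, but 16 were shared. Median-of-ratios and upper-quartile scaling gave 44 and 42, with 27 and 30 shared, and 25 transcripts met the rule under all 3 scalings, a count added after the data were seen. Below 1 RPKM in both controls the pseudocount of 0.1 RPKM left 4 late transcripts. All 54 were higher in heat-tolerant leaves at 8 h under both scalings, which raise that ratio and so could not lower the count.

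Medians over the 54 are given in the order 8 h to control (tolerant, sensitive), 4 h to control (tolerant, sensitive) and tolerant to sensitive at 8 h, all as log2 ratios. As reported they were 5.03, 3.60, 0.50, 0.01 and 1.32. They became 8.14, 6.72, 2.07, 0.0535 and 1.37 with a pseudocount of 0.1 RPKM, and 2.97, 1.78, 0.13, 0.00143 and 1.17 with 5 RPKM. Median-of-ratios scaling gave 5.35, 3.30, 0.31, 0.01 and 1.95, and upper-quartile scaling 5.08, 3.35, 0.34, 0.01 and 1.63. With 1 transcript per component (31 in all) they were 4.79, 3.49, 0.46, 0.0392 and 1.65, and with proportional members merged (49 left) 5.11, 3.64, 0.52, 0 and 1.33. Proportional members were looked for only among the 19 above 0 in every library, so most of the off group could not be merged. The tolerant median at 4 h thus passed a 2-fold change with the small pseudocount. No median changed sign.

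The list of transcripts late in heat-tolerant leaves held 660 with a pseudocount of 5 RPKM and 2550 under median-of-ratios scaling. The sensitive list held 138 with 5 RPKM, and 108 and 109 under median-of-ratios and upper-quartile scaling. Late falling transcripts numbered 3 with 5 RPKM, and 4 and 5 under the scalings. Other transcripts of the components that were 4-fold higher at 8 h in both numbered 72, against 124 with a pseudocount of 0.1 RPKM and 8 with 5 RPKM. Among 32 ratios of 8 h to control for named transcripts, 9 fell below 4-fold with 5 RPKM, 4 with median-of-ratios factors and 5 with upper-quartile ones, with no change of sign. Depth limits values below 1 RPKM most, since the reads behind them are unknown. No paired analysis was possible because each group held 1 library and the labels give no replicate numbers.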

Other observations

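A rule in the opposite direction was met by 14 transcripts of 11 components. These stayed within 2-fold of control at 4 h and stood at 1/4 of control or less at 8 h in both genotypes. They also had 10 RPKM or more in both controls, a limit that the late rule did not set. Of the 54 late transcripts 38 were below 1 RPKM in both controls and 16 at 1 RPKM or more. The counts of 14 and 54 are thus not like for like. With 1 library per group, the difference between the counts was not tested.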
